A study of Mus musculus and Rattus norvegicus with 28 samples.

Results

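The core genes of the circadian clock were followed in cardiomyocytes around birth. The members are 10 genes taken by name, Per1, Per2, Per3, Cry1, Cry2, Arntl, Clock, Nr1d1, Nr1d2 and Dbp, out of 55450 genes in the mouse files and 32623 in the rat files. Each was found once per species and each passed the filter on low values, which left 13979 mouse and 13625 rat genes for testing.

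The mouse cells came from the left ventricles of wild-type C57BL/6 animals of both sexes at embryonic day 18.5 (E18.5) and postnatal days 1, 3 and 7 (P1, P3, P7), with 2 RNA-seq and 2 ATAC-seq libraries per age. The rat cells were neonatal ventricular cardiomyocytes of wild-type Sprague Dawley pups of both sexes at P1, plated and exposed 1 day later to 100 nM trichostatin A (TSA), an inhibitor of histone deacetylases, or to its solvent DMSO, with 3 RNA-seq libraries each. All cells went through overnight trypsin in the cold, collagenase and a period on plastic in serum medium that removes attaching cells. The sources used here give neither the hour of day at collection nor the number of animals per library, so the errors below measure the spread between libraries, which may be technical. With the hour not known, differences of clock phase at collection and differences of age cannot be told apart in the mouse libraries.

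The mammalian clock is a feedback loop of transcription. ARNTL (also called BMAL1) and CLOCK bind E-box elements and switch on the Per and Cry genes, whose proteins return to the nucleus and silence their own activators. In a further loop the nuclear receptors NR1D1 and NR1D2 (REV-ERBα and REV-ERBβ), themselves driven through E-boxes, repress Arntl at ROR elements, and DBP, an E-box-driven factor that binds D-boxes, carries the rhythm to output genes. Most tissues including the heart run this loop, and in steady oscillation Arntl and Dbp peak at opposite phases.

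In mm10 the activators are Arntl at chr7:113207465-113314126 and Clock at chr5:76209868-76304792, and the repressors are Per1 at chr11:69095217-69109960, Per2 at chr1:91415982-91459324, Per3 at chr4:151003652-151044665, Cry1 at chr10:85131700-85185064 and Cry2 at chr2:92403646-92434043. The nuclear receptors are Nr1d1 at chr11:98767932-98775333 and Nr1d2 at chr14:18204054-18239127, and the output factor is Dbp at chr7:45705088-45710203.

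Short DNA sequences that these factors read were found inside the open chromatin of several members, and they are shown because these are the elements through which the members are known to act on each other. CACGTG was searched as the E-box, TTATGTAA and TTACGTAA as the D-box, and AGGTCA as the core of the element shared by ROR and REV-ERB (ROR core), each on both strands. The sequences below are reference sequence of GRCm38.p6 (the build of the peak files, also called mm10), promoters from RefSeq and peak windows from the genome, read 5′ to 3′ on the strand of the gene with annotated exons left out. Capitals mark the matches. Distances are counted from the outermost annotated transcript start of the gene.
Per1 upstream, E-box at 150 bp before the start, chr11:69095017-69095216, plus strand: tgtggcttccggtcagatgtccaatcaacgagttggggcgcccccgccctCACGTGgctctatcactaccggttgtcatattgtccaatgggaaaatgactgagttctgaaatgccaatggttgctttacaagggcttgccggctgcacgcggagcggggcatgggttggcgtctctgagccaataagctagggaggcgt
Cry1 promoter, E-box at 50 bp before the start, chr10:85185065-85185304, minus strand: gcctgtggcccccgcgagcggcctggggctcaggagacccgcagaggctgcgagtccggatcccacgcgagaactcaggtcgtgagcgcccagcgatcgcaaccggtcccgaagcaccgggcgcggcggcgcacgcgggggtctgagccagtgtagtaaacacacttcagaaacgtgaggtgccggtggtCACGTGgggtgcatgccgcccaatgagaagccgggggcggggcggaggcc
Nr1d1 intron, E-box at 2290 bp after the start, chr11:98772837-98773136, minus strand: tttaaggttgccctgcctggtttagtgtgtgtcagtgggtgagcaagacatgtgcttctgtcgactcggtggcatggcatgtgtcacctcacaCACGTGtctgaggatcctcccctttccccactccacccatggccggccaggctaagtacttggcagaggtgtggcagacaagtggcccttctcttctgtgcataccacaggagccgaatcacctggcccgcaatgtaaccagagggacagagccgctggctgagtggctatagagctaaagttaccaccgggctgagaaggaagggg
Nr1d1 intron, E-box at 1174 bp and D-box on the other strand at 1246 bp after the start, chr11:98773900-98774199, minus strand: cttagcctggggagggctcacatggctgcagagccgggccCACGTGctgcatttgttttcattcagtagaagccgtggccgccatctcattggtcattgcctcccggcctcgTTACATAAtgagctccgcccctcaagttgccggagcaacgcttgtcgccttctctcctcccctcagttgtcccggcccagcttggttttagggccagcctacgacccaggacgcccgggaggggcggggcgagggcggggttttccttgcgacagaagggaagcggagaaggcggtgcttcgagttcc
Per2 upstream, D-box at 125 bp before the start, chr1:91459345-91459644, minus strand: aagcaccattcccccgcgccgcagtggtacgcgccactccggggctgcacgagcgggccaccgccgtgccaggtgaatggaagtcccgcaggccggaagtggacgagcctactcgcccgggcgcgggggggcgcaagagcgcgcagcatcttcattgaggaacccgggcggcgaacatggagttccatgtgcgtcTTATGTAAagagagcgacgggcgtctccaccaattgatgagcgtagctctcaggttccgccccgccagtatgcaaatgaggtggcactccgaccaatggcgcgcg
Per3 promoter, D-boxes at 205 and 158 bp before the start, chr4:151044666-151044915, minus strand: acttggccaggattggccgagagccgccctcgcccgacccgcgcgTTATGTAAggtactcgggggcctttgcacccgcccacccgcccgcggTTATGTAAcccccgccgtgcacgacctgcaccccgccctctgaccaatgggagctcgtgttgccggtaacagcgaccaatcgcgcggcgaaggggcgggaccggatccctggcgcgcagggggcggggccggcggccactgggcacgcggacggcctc
Nr1d2 promoter, ROR core at 56 bp before the start, chr14:18239128-18239356, minus strand: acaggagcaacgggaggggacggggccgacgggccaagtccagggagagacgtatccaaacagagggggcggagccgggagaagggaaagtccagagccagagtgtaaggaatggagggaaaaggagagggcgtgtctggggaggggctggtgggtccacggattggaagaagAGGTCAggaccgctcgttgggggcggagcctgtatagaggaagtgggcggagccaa

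Peaks of all 8 ATAC-seq lists covered the Per1 E-box shown above, the Per2 D-box, both Per3 D-boxes, the Nr1d2 ROR core and the downstream Nr1d1 E-box. A further Per1 E-box, 3566 bp after the outermost start, lay under a peak in 2 lists. The upstream Nr1d1 intron E-box lay under a peak in 5 lists and the Cry1 E-box in 6. Dbp held 2 E-boxes at 2624 and 2737 bp after its start, inside an annotated exon, under peaks in 4 and 2 lists. A ROR core 188 bp before the Dbp start was covered in all 8 lists. Among 250-base stretches upstream of RefSeq starts, 6.0% of all 32851 held the E-box, 0.9% the D-box and 14.0% the ROR core. Members had 13 such entries, none for Per2, of which 2 held the E-box, 1 the D-box and 3 the ROR core. The 2 with the E-box were those of Cry1 and Per1, and in Per1 it was the further E-box. The 300-base windows at summits near starts of tested genes in the longest list gave shares of 8.2%, 0.6% and 14.1%, against 5, 3 and 5 of 29 windows of the members. A match describes letters in the reference and is not a measured binding site.

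Most members had a promoter peak at every age, with Clock the exception. A member counted as open when a peak lay within 2.5 kb of any of its transcript starts. All 10 members met this in 6 of the 8 lists and 9 in the other 2, replicate 1 at E18.5 and replicate 2 on P1, where Clock had no peak. The share of all tested genes with such a peak was 67.1% and 62.4% in the E18.5 lists, 69.2% and 43.0% on P1, 91.7% and 87.7% on P3 and 86.5% and 85.5% on P7. Every member had a peak in at least 1 E18.5 list, so none could gain one by the rule of both later lists against neither E18.5 list, as 1.37%, 15.64% and 12.12% of all tested genes did at P1, P3 and P7. None lost one in both later lists, as 3.81%, 0.07% and 0.03% of tested genes did. Since the lists ran from 13149 to 95257 peaks, presence depends on the length of the list. With the 13149 best-scoring peaks of each list, 7 to 10 members had a peak, Clock had none in 6 lists including both of P1 and both of P3, and Cry1 had none in replicate 2 of P1 and Dbp and Nr1d1 none in replicate 1 of P3. The share of all tested genes at that length was 35.5% to 67.1%, and 40.8% in replicate 1 of P3, where 7 members had a peak. Peak names in the lists of E18.5 replicate 1 and P7 replicate 1 begin with the same label, which the sources used here do not explain.

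The strength of a promoter was taken as the fold enrichment over local background at the summit of its best peak, the one with the highest score (lowest q), which is not always the peak with the highest fold enrichment. For Arntl it was 8.09 and 7.48 at E18.5, 8.80 and 4.72 on P1, 8.44 and 11.1 on P3 and 9.0 and 7.62 on P7. Nr1d1 had the lowest value of the members with a peak in 7 of the 8 lists, the exception being replicate 1 on P1, with values of 4.98 and 4.21 at E18.5, 5.58 and 3.76 on P1, 3.69 and 5.89 on P3 and 3.76 and 4.58 on P7. Its best peak lay at the start in replicate 2 at E18.5 and replicate 1 on P7. In the other lists it lay in the intron, so the Nr1d1 values come from different regions. The ages overlap for both genes. Per2 read 9.16 and 7.81 at E18.5 and 5.33 and 5.57 on P7. The median over all peaks of a list was 5.94 and 5.65 at E18.5 and 4.57 and 4.35 on P7, so the lists differ in the same direction. These values were not tested, since fold enrichment is scaled within each list.

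**Figure D1:**
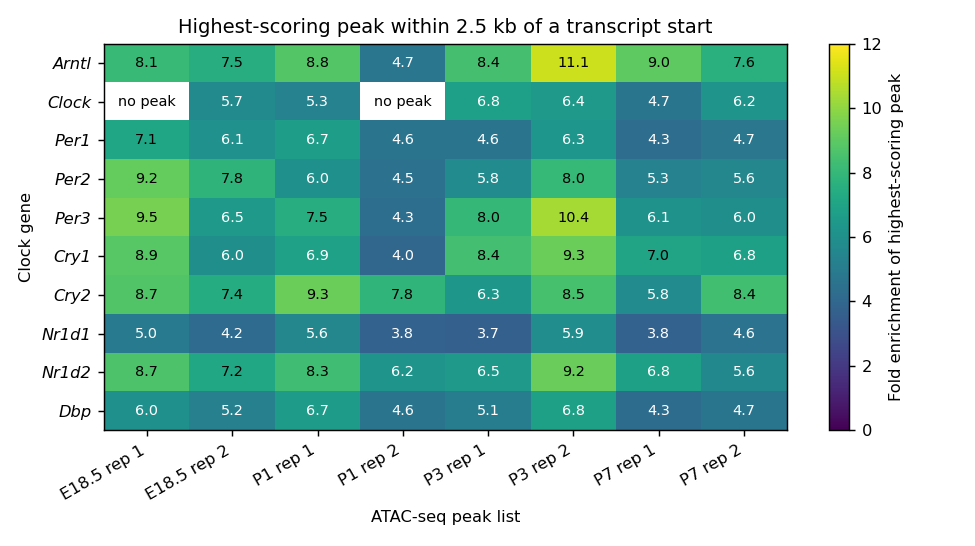
Fold enrichment of the highest-scoring ATAC-seq peak within 2.5 kb of a transcript start, by clock gene (rows) and peak list (columns), on a colour scale from 0 to 12. Only Clock lacked a peak, in replicate 1 at E18.5 and replicate 2 on P1, and replicate 2 on P1 holds the lowest value of Arntl, Per2, Per3 and Cry1.

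Members differed in how many open regions they had near their starts. Over the 8 lists the peaks merged into 27 regions, of which 11 were in all 8 lists and belonged to 9 members. Per1 had 5 regions, Nr1d1 4, Arntl and Per2 3 each, and Nr1d2, Per3, Cry1, Cry2, Clock and Dbp had 2 each. In Nr1d1 a region at the start, chr11:98775051-98776150, and one in the intron, chr11:98772721-98773175, were in all 8 lists, and the region between them, chr11:98773701-98774333, in 7. A set of 10 regions of 7 members was seen in P3 or P7 lists only, among them Arntl at chr7:113241864-113242655 and Per2 at chr1:91457854-91458715, and the 4 lists of these ages are the longest of the 8.

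In RNA, Nr1d1 and Per1 were called lower than at E18.5 on P1, P3 and P7, Cry1 and Per2 at P3 and Nr1d2 on P7. In every later library Cry1, Per2 and Nr1d2 were below both E18.5 libraries. At P1 and P7 Cry1 and Per2 passed the adjusted p but not the fold threshold. No member was called higher at a postnatal age, and the highest levels of Dbp, Per3 and Clock were in P1 libraries. A gene was called when limma's adjusted p was under 0.05 and the log2 fold change of FPKM + 1 was over 1 in size. Levels are FPKM, fragments scaled to transcript length and to the aligned total of the library, which, estimated from coverage, was 29.32 to 37.5 M in mouse and 28.21 to 38.49 M in rat.

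**Figure D2:**
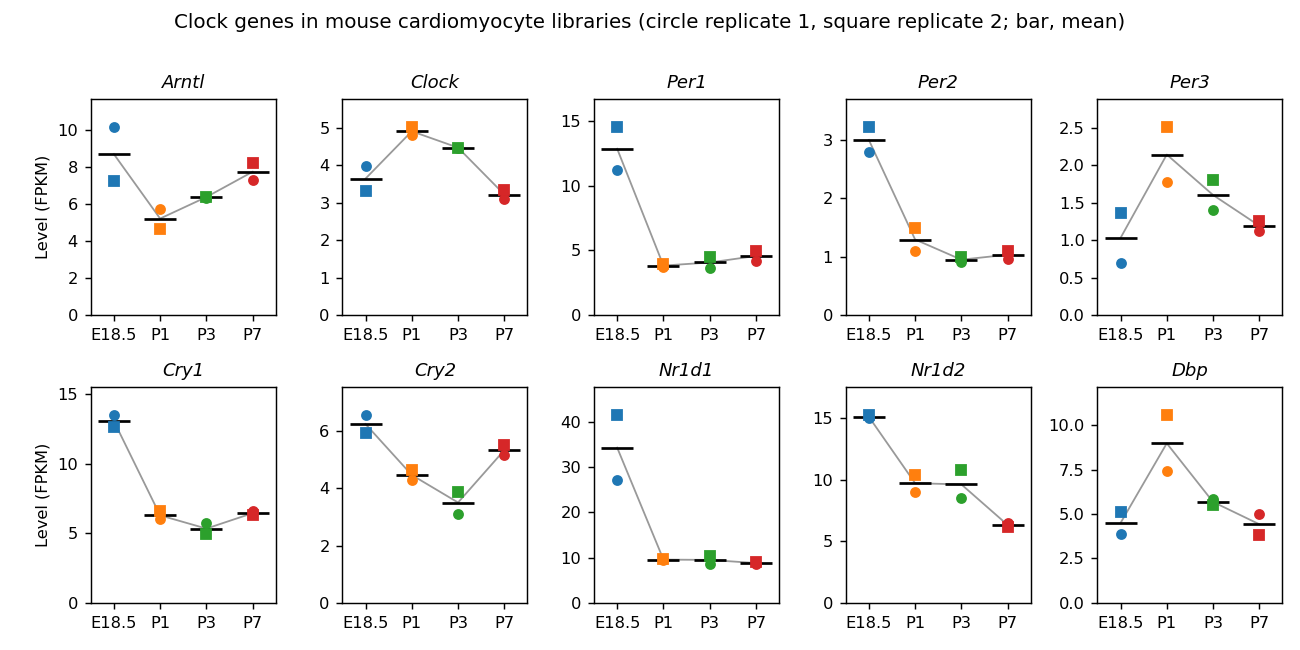
Level in FPKM (vertical axes, from 0) of each clock gene at E18.5, P1, P3 and P7. Circles and squares are replicates 1 and 2, bars the mean of 2 joined by a line, and the panels show Per1, Per2, Cry1 and Nr1d1 highest in both E18.5 libraries and Dbp highest in both P1 libraries.

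Nr1d1, the stronger of the 2 REV-ERB genes in these cells at E18.5, read 27.1 and 41.4 FPKM at E18.5, 9.44 and 9.69 on P1, 8.61 and 10.4 on P3 and 8.5 and 9.10 on P7. Both E18.5 libraries lay above all 6 later ones, and they differed from each other more than the later libraries did. The log2 fold change against E18.5 was −1.71 ± 0.20 (SE) at P1, −1.72 ± 0.20 on P3 and −1.82 ± 0.20 on P7, with limma adjusted p of 0.00057, 0.00035 and 0.00017. Of its exonic bases, 8.5% are shared with Thra on the opposite strand, and no source used here says that the libraries kept strand.

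Nr1d2, the paralog with an overlapping role, read 15.0 and 15.2 FPKM at E18.5, 9.02 and 10.4 on P1, 8.49 and 10.8 on P3 and 6.47 and 6.18 on P7. The 2 P7 libraries were lower than all others, and the gene was called at P7 alone (−1.14 ± 0.16, limma adjusted p = 0.00051). Its P1 value of −0.59 ± 0.16 passed limma's adjusted p (0.018) but not the fold threshold, and not the adjusted p without replicate 2 of E18.5 or replicate 1 of P1 (0.057 and 0.099). From P1 to P7 the difference was −0.55 ± 0.16 (limma adjusted p = 0.046), which rose to between 0.052 and 0.23 with each library left out. The ratio of Nr1d1 to Nr1d2 on the log2 scale was 0.86 and 1.44 at E18.5, 0.07 and −0.11 on P1, 0.02 and −0.05 on P3 and 0.39 and 0.56 on P7, so the pair had near equal levels per length at P1 and P3.

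Per1, the Period gene that also responds to acute signals, read 11.2 and 14.5 FPKM at E18.5, 3.73 and 3.92 on P1, 3.62 and 4.52 on P3 and 4.2 and 4.95 on P7. No later library reached the lower E18.5 value. The change was −1.51 ± 0.18 on P1, −1.45 ± 0.18 on P3 and −1.31 ± 0.18 on P7 (limma adjusted p of 0.0006, 0.00048 and 0.00053). Per2, its paralog and the limiting repressor in many tissues, read 2.78 and 3.21 FPKM at E18.5, 1.09 and 1.49 on P1, 0.91 and 0.99 on P3 and 0.96 and 1.10 on P7. All 6 later libraries were below both E18.5 libraries, but Per2 was called at P3 alone (−1.04 ± 0.17, limma adjusted p = 0.0015), and without replicate 2 of E18.5 the P3 value of −0.96 was not called. At P1 and P7 the values were −0.81 ± 0.17 and −0.98 ± 0.17, with limma adjusted p of 0.0064 and 0.0015. With a pseudocount of 0.1 they were −1.17 and −1.45 and both were called, while with TPM neither was. Without replicate 1 of E18.5 or replicate 2 of P7, Per2 was called lower at P7 (−1.05 and −1.03).

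Per3, a Period gene that is dispensable for the core loop, read 0.69 and 1.37 FPKM at E18.5, 1.78 and 2.51 on P1, 1.41 and 1.80 on P3 and 1.12 and 1.26 on P7. Both P1 libraries were above both E18.5 libraries, with a difference of 0.64 ± 0.22 (limma adjusted p = 0.044) that stayed under the fold threshold. With any library but replicate 2 of E18.5 left out, its adjusted p was over 0.05, and without replicate 1 of E18.5 the difference was 0.40. At P3 and P7 the differences were 0.38 ± 0.22 and 0.13 ± 0.22, and neither passed (adjusted p of 0.18 and 0.63). The log2 ratio of Per1 to Per3 was 4.02 and 3.41 at E18.5 and 1.07 and 0.65 on P1, then 1.36 and 1.33 on P3 and 1.90 and 1.97 on P7.

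The Cry genes encode the repressor partners of the PER proteins. Cry1 read 13.5 and 12.7 FPKM at E18.5, 6.01 and 6.59 on P1, 5.72 and 4.98 on P3 and 6.62 and 6.30 on P7. It was called lower at P3 (−1.15 ± 0.14, limma adjusted p = 0.00048), and at P1 and P7 the values of −0.95 ± 0.14 and −0.92 ± 0.14 ended just inside the fold threshold with limma adjusted p of 0.0017 and 0.001. Without replicate 2 of P1 the P1 value was −1.01 and was called. Cry2 read 6.54 and 5.93 FPKM at E18.5, 4.27 and 4.65 on P1, 3.11 and 3.88 on P3 and 5.16 and 5.49 on P7. Its largest difference was at P3, −0.69 ± 0.16 (limma adjusted p = 0.0081, and 0.067 without replicate 1 of P3), and at P7 it was −0.19 ± 0.16 (adjusted p = 0.33).

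The 2 activators were not called at any age. Arntl read 10.1 and 7.25 FPKM at E18.5, 5.75 and 4.67 on P1, 6.34 and 6.40 on P3 and 7.27 and 8.21 on P7. The P1 libraries were the lowest 2 of the 8, at −0.63 ± 0.19 against E18.5 (limma adjusted p = 0.028). Without replicate 1 of E18.5 this was −0.42 and without replicate 2 of P1 −0.51, with limma adjusted p of 0.11 and 0.13. Without replicate 2 of E18.5 the P3 difference passed the adjusted p (−0.60, limma adjusted p = 0.037). The P7 libraries overlapped the E18.5 ones (−0.14 ± 0.19, adjusted p = 0.56). Clock read 3.98 and 3.32 FPKM at E18.5, 4.81 and 5.02 on P1, 4.47 and 4.47 on P3 and 3.10 and 3.34 on P7. Its P1 libraries were the highest 2, and no comparison with E18.5 passed the adjusted p (0.35 ± 0.15 on P1, adjusted p = 0.10).

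Dbp, the output factor, read 3.86 and 5.13 FPKM at E18.5, 7.41 and 10.6 on P1, 5.84 and 5.52 on P3 and 5.02 and 3.83 on P7. Both P1 libraries were above the other 6, and E18.5 and P7 overlapped. The difference of P1 from E18.5 was 0.85 ± 0.21 (limma adjusted p = 0.014), and that of P7 from P1 was −0.87 ± 0.21 (adjusted p = 0.026), both under the fold threshold. Without replicate 2 of E18.5 or replicate 1 of P1 the P1 difference was 1.02 and 1.08 and was called higher, and without replicate 1 of E18.5 or replicate 2 of P1 it was 0.69 and 0.62 with limma adjusted p of 0.069 and 0.079. Of its exonic bases, 18% are shared with Sphk2 on the opposite strand. Without replicate 1 of P1 the fall from P1 to P7 reached −1.10 and was called, and without replicate 1 of P7 it reached −1.03 and was called. Without replicate 2 of P1 or of P7 it was −0.64 and −0.71, with limma adjusted p of 0.16 and 0.18.

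**Figure D3:**
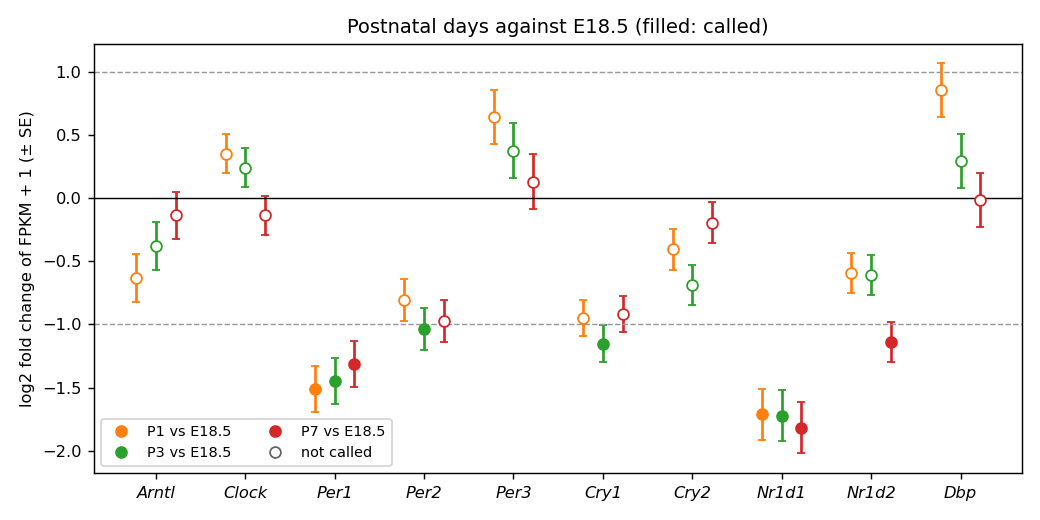
Log2 fold change of FPKM + 1 against E18.5 (vertical axis, ± SE from the fit over 8 libraries) for each clock gene at P1, P3 and P7. Filled points were called, dashed lines mark a log2 fold change of 1 in either direction, and only Per1, Per2, Cry1, Nr1d1 and Nr1d2 have a filled point, all below −1.

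Counted over the members, 2 of 10 were called lower at P1, 4 on P3 and 3 on P7. Among all tested genes 6.06%, 8.88% and 12.3% were called lower at these ages. None of the 10 was called higher, for which the shares of all tested genes were 10.1%, 13.0% and 15.4%. An adjusted p under 0.05 in either direction was reached by 8, 6 and 5 members against 41.3%, 48.9% and 55.2% of all tested genes. The median difference of the members was −0.61, −0.65 and −0.56, beside 0.15, 0.16 and 0.15 over all tested genes, so the members' medians lay below those of all genes. These 3 comparisons share the E18.5 libraries and are not independent of each other.

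Between postnatal ages no member was called. From P1 to P7, 5 members had an unadjusted p under 0.05 (Nr1d2, Per3, Clock, Arntl and Dbp), from P3 to P7 3 (Nr1d2, Clock and Cry2) and from P1 to P3 only Dbp, against 31.0%, 18.5% and 11.3% of all tested genes. The shares of all tested genes called in either direction were 8.91%, 3.55% and 0.0143%. The 2 P7 libraries of Cry2 were above both P3 libraries, by 0.50 ± 0.16 (limma adjusted p = 0.13).

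The E18.5 libraries also differed in what else they held. Summed FPKM of the 5 erythroid genes was 18216 and 22634 at E18.5 and 3.20 to 25.4 later, with Slc4a1 at 0 in 5 of the 6 later libraries. The 14 immediate early genes, which answer dissociation and other acute stimuli, summed to 1231 and 1473 at E18.5, 356 and 401 on P1, 333 and 406 on P3 and 656 and 767 on P7. Of the 14, 12, 12 and 9 were called lower at P1, P3 and P7, with median differences of −1.83, −1.59 and −1.43. The 10 cardiomyocyte genes summed to 26899 and 34460 at E18.5 and to 2096 and 912 on P7, where all 10 were called lower, while the 8 fibroblast genes went from 442 and 432 to 2907 and 3629 and were all called higher. The P7 libraries, labelled cardiomyocyte, held a higher sum over the fibroblast than over the cardiomyocyte genes. Of the other lists, smooth muscle and pericyte genes summed to 397 and 518 at E18.5 and 1650 and 1857 on P7, endothelial genes to 169 to 332 and macrophage genes to 24.9 to 42.6 over all 8 libraries. In bulk RNA, fewer cells of a type and less RNA per cell cannot be told apart, and the part of these shifts in the clock gene differences was not tested. The 8 glucocorticoid target genes, of which Per1 is 1, summed to 368 and 282 at E18.5, 258 and 217 on P1, 289 and 261 on P3 and 357 and 400 on P7.

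Among 20 other clock-linked genes, 19 of which were tested, 1 was called higher and 2 lower at P1, 1 higher and 4 lower at P3, and 1 higher and 4 lower at P7. Of all tested genes, 10.1%, 13.0% and 15.4% were called higher and 6.06%, 8.88% and 12.3% lower at these ages. The gene that rose was Tipin, the partner of TIMELESS at the replication fork, from 15.0 and 16.7 FPKM at E18.5 to 45.7 and 34.3 on P1 and 48.5 and 53.5 on P7 (1.27 ± 0.16 and 1.63 ± 0.16, limma adjusted p of 0.00065 and 8.3e-05). Nfil3, the D-box repressor that opposes DBP, fell from 44.0 and 68.5 FPKM to 15.0 and 15.7 on P1 (−1.78 ± 0.20, adjusted p = 0.00043) and was called lower at P3 and P7 as well. Ciart, an E-box-driven repressor of ARNTL and CLOCK, read 8.17 and 4.75 FPKM at E18.5, 2.32 and 2.3 on P1, 1.76 and 1.90 on P3 and 5.45 and 4.13 on P7. Ciart was called lower at P1 and P3, and higher from P3 to P7 (1.02 ± 0.24, limma adjusted p = 0.049).

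Usp2, a deubiquitinase with rhythmic expression in many tissues, fell at P3 (−1.69 ± 0.24) and P7 (−3.21 ± 0.24, limma adjusted p = 3.2e-05), from 24.4 and 23.6 FPKM at E18.5 to 1.98 and 1.47 on P7. Npas2, the CLOCK paralog, was called lower at P3 and P7 (−1.27 ± 0.25 and −1.21 ± 0.25). Usp2 was also called lower from P1 to P7 and from P3 to P7 (−2.28 ± 0.24 and −1.52 ± 0.24, limma adjusted p of 0.0011 and 0.015). Cipc was called lower from P1 to P7 (−2.26 ± 0.60, limma adjusted p = 0.035), and its 2 E18.5 libraries read 14.4 and 2.09 FPKM.

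Dbp was high in the libraries in which Arntl was low. The log2 ratio of Dbp to Arntl was −1.39 and −0.50 at E18.5, 0.37 and 1.2 on P1, −0.12 and −0.21 on P3 and −0.53 and −1.10 on P7. Only the 2 P1 libraries had more Dbp than Arntl per length of transcript. As a measure of likeness over the 8 libraries, Pearson's r of log2(FPKM + 1) between the pair was −0.94, and that between Per3 and Arntl −0.95. Libraries of 1 age share that age and its preparation, the hour of collection is not known, the E18.5 libraries stand apart, and no test was made.

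**Figure D4:**
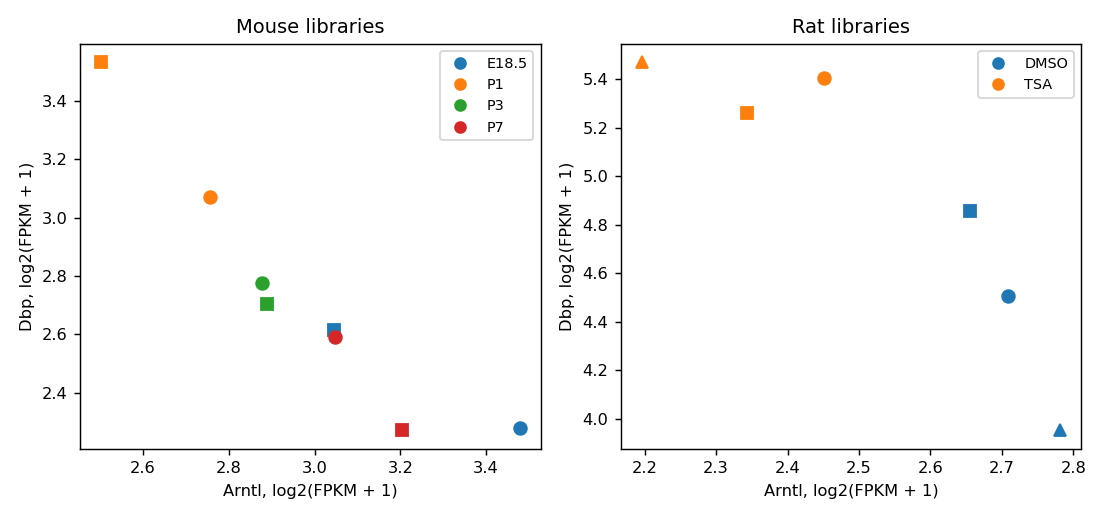
Dbp (vertical axis) against Arntl (horizontal axis), both in log2(FPKM + 1), in the 8 mouse and 6 rat libraries, coloured by group, with circles, squares and triangles for replicates 1, 2 and 3. The P1 points lie at high Dbp and low Arntl in mouse, and the TSA points do so in rat.

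By the same measure, the tested genes most like Dbp over the 8 mouse libraries were Fam122a, H2-T24, Astn2, Nyap1 and Lrsam1 (r of 0.96 to 0.98). Those most like Nr1d1 were Il10, Gm42929, Edn2, Sec31b and Gm36028 (all 1.00 after rounding), and Per1 had rank 55 with an r of 0.98. Their mean levels at E18.5 were at least 1.29 FPKM, and at each later age they were at most 0.56. Those most like Arntl were Meox2, Ddx3y, Itga2, Baiap2 and 1700123O20Rik (0.95 to 0.97). In the 6 rat libraries C1qb, Glrx5, Prxl2b, Dynll2 and Lyrm9 were most like Dbp. LOC103694404, Hdhd5, Rpl39, Pip5k1b and AABR07065438.1 were most like Nr1d1, and AABR07021955.1, Tbl3, Actb, Psmd7 and Kdelr2 most like Arntl, with r from 0.98 to 1.00 over all 3 sets.

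In rat cells no member was called after TSA. Libraries of the groups did not overlap for Dbp and Nr1d1, which read higher with TSA, and for Arntl and Clock, which read lower, 2 of 10 members each way beside 17.1% and 10.1% of all tested genes. Dbp read 21.8, 27.9 and 14.5 FPKM with DMSO and 41.4, 37.4 and 43.3 with TSA. All 3 TSA libraries were above all 3 DMSO libraries, and DMSO replicate 3 was the lowest. The difference was 0.94 ± 0.22 (limma adjusted p = 0.070, exact permutation p = 0.1, two-sided, the smallest that 3 against 3 allows). Without DMSO replicate 3 it was 0.70 ± 0.13 with an adjusted p of 0.039, still under the fold threshold.

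**Figure D5:**
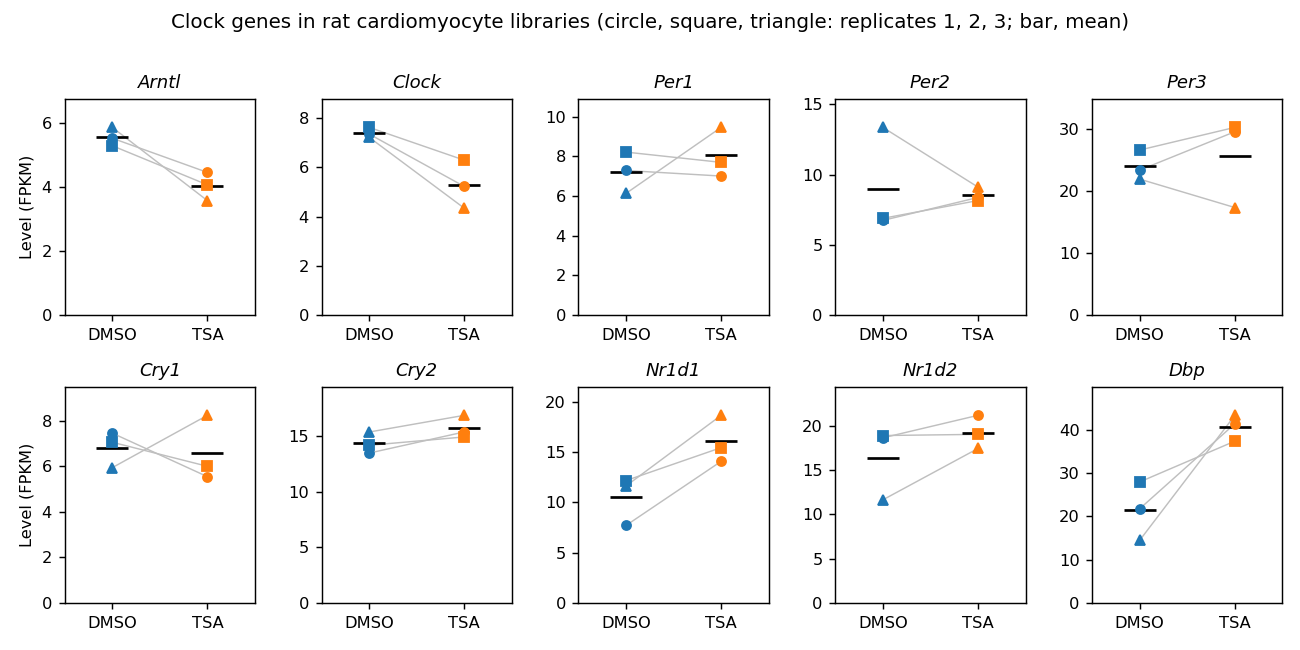
Level in FPKM (vertical axes, from 0) of each clock gene in rat cardiomyocytes with DMSO or TSA. Points are single libraries joined by replicate number, bars are means of 3, and the groups are separate for Dbp, Nr1d1, Arntl and Clock only.

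Nr1d1 read 7.71, 12.2 and 11.6 FPKM with DMSO and 14.1, 15.5 and 18.7 with TSA, again without overlap (0.58 ± 0.19, limma adjusted p = 0.15). Arntl, the gene that NR1D1 represses, read 5.54, 5.30 and 5.88 with DMSO and 4.47, 4.08 and 3.58 with TSA, every TSA library below every DMSO library (−0.39 ± 0.13, adjusted p = 0.15). Clock read 7.36, 7.63 and 7.23 with DMSO and 5.23, 6.30 and 4.34 with TSA (−0.43 ± 0.14, adjusted p = 0.16). The exact permutation p was 0.1 for each. With the replicate number as a block the adjusted p was 0.081 for Dbp, 0.069 for Nr1d1, 0.14 for Arntl and 0.12 for Clock, and the calls did not change.

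These 4 members had an unadjusted p under 0.05, against 19.8% of all tested genes. Calls among all tested genes were 1.81% higher and 0.316% lower. The median of the members was 0.09, against 0.03 over all genes.

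The other 6 members overlapped between groups. Per1 read 7.29, 8.21 and 6.13 FPKM with DMSO and 7.01, 7.70 and 9.46 with TSA, and Cry1 7.45, 7.05 and 5.93 against 5.54, 5.99 and 8.23. Cry2, at 13.5, 14.2 and 15.4 against 15.4, 14.9 and 16.9, came closest to separation (0.12 ± 0.10, limma adjusted p = 0.57). Nr1d2 read 18.7, 18.9 and 11.7 against 21.2, 19.0 and 17.5 (0.24 ± 0.19, adjusted p = 0.55).

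Per2, Per3 and Cry1 turned on replicate 3. Per2 read 6.74, 6.88 and 13.4 FPKM with DMSO and 8.37, 8.15 and 9.11 with TSA, and Per3 23.3, 26.6 and 21.9 against 29.5, 30.2 and 17.3. Over all libraries both differences were near 0 (−0.00 ± 0.25 and 0.06 ± 0.22). Without replicate 3 of both groups, a choice made after the data were seen, they were 0.25 ± 0.09 and 0.25 ± 0.08, with limma adjusted p of 0.12 and 0.091, and Dbp was 0.65 ± 0.13 with 0.026. Cry1, at −0.05 over all libraries, was −0.29 ± 0.10 in the same fit (limma adjusted p = 0.11).

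Replicate 3 stood apart in both groups. Smooth muscle and pericyte genes summed to 2176 FPKM in DMSO replicate 3 and 1407 in TSA replicate 3, against 851 to 933 and 607 to 611 in the other libraries. Macrophage genes summed to 233, 245 and 95.8 with DMSO and 132, 112 and 91.1 with TSA, lower with TSA in each replicate number, and endothelial genes to 11.5 to 17.2 in all 6. Cardiomyocyte genes summed to 13300 to 16677 with DMSO and 13152, 11606 and 24101 with TSA. The 7 fibroblast genes found in rat summed to 6383, 6930 and 6692 with DMSO and 5965, 5658 and 3565 with TSA. Every TSA library was below every DMSO library in this sum, and TSA replicate 3 was the lowest. The part of these shifts in the rat differences was not tested. Of the clock-linked genes, 17 were tested in rat and none was called by limma, with 1 at an unadjusted p under 0.05. That gene was Ciart, at 1.12, 1.05 and 1.58 FPKM with DMSO and 3.44, 2.27 and 4.63 with TSA (0.96 ± 0.23, adjusted p = 0.072), named after its values were seen.

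The log2 ratio of Dbp to Arntl in rat was 1.97, 2.40 and 1.3 with DMSO and 3.21, 3.20 and 3.60 with TSA. Every rat library had more Dbp than Arntl per length. With DMSO the order of mean levels per length was Per3 (23.9 ± 2.40 FPKM, SD, n = 3), Dbp (21.4 ± 6.75), Nr1d2 (16.4 ± 4.12), Cry2 (14.3 ± 0.96), Nr1d1 (10.5 ± 2.44), Per2 (9.0 ± 3.79), Clock (7.40 ± 0.21), Per1 (7.21 ± 1.04), Cry1 (6.81 ± 0.78) and Arntl (5.57 ± 0.29). Only the steps from Cry2 to Nr1d1 and from Cry1 to Arntl separated neighbours whose libraries did not overlap. In mouse at E18.5 Nr1d1 led at 34.3 ± 10.1 FPKM (SD, n = 2), followed by Nr1d2 (15.1 ± 0.17), Cry1 (13.1 ± 0.58), Per1 (12.9 ± 2.35), Arntl (8.70 ± 2.04), Cry2 (6.23 ± 0.43), Dbp (4.49 ± 0.89), Clock (3.65 ± 0.47), Per2 (3.00 ± 0.30) and Per3 (1.03 ± 0.48). Libraries of neighbours overlapped for Cry1 and Per1 and for Dbp and Clock, and not for the others. In mouse at P1 Nr1d2, Nr1d1 and Dbp led at 9.72 ± 0.99, 9.57 ± 0.18 and 8.98 ± 2.23 FPKM (SD, n = 2) with overlapping libraries, and Per3 and Per2 came last at 2.14 ± 0.51 and 1.29 ± 0.28. Levels of the 2 species come from different annotations and preparations and were not compared by a test.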

How the data were processed

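Gene levels were read from the StringTie output that the authors deposited, 1 file per library. The authors aligned RNA-seq reads with HISAT2 2.1.0 to mm10 (mouse) or rn6 (rat) and quantified annotated transcripts with StringTie, and the deposited FPKM, TPM and coverage values are per transcript. ATAC-seq peaks came from MACS2, which the authors ran on each library alone after bowtie2 alignment and removal of duplicates. Peaks over blacklisted regions were removed after calling. The deposited lists give for each peak a score, a fold enrichment ratio and −log10 p and q values. The processing tools and builds are those of the submitters' notes and the study's methods. The HiChIP libraries were not analysed here.

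FPKM of a gene's transcripts were summed. Mouse genes with at least 1 FPKM in 2 libraries and rat genes with at least 1 FPKM in 3 libraries were tested with limma 3.58.1 (R 4.3.3) on log2(FPKM + 1) with a mean-variance trend, 1 fit per species, two-sided, with Benjamini-Hochberg adjustment over all tested genes. Fold changes on this scale understate those of low genes. The code was tested on simulated data. The study used a count model, which FPKM themselves do not allow. Limma-voom on reads estimated from coverage was run as an alternative. Reads were 29.32 to 37.5 M aligned per mouse library and 28.21 to 38.49 M per rat library by the files' own FPKM and coverage, and the members had an estimated 122 to 3656 reads per mouse library and 375 to 3471 per rat library.

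All members were named, with up to 4 called clock-linked genes per comparison by size of change, and the 5 genes most like Dbp, Nr1d1 and Arntl. Some genes that this rule names are not reported here. The members and lists were chosen with earlier results of these data known. Same-numbered rat libraries deviated together (r of 0.224, 0.194 and 0.346), while those with different numbers had r from −0.27 to 0.167. The labels do not say whether the numbers mark pairs. The main rat fit and the permutation test did not pair the libraries. Alternatives were another pseudocount, filter, unit, scaling and test, a replicate block, each library left out, and for peaks equal list lengths, other windows, summits and starts. Leaving out rat replicate 3 of both groups was added after the data were seen.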

Additional observations from a re-analysis of the deposited data

How the results depend on the processing

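Nr1d1 and Per1 were called lower at P1, P3 and P7 against E18.5 under every alternative tried for the mouse libraries. The number of members called at P1 was 2 and became 4 with a pseudocount of 0.1, which added Cry1 and Per2 as lower. With limma-voom on estimated reads it was 5, with Per3 added to those 4 as higher. At P7 it was 3 and became 5 with a pseudocount of 0.1 and 5 with median-of-ratios scaling, with Cry1 and Per2 added each time. From P1 to P7 it was 0, became 1 with limma-voom (Dbp, −1.19), and ranged from 0 to 1 when each library was left out. With TPM, Dbp was called higher at P1 (1.14), while Cry1 at P3 (−0.98) and Nr1d2 at P7 (−0.94) were not called. Over all alternatives 964 member log2 fold changes kept direction and side of the threshold, 20 passed it newly, 3 lost it and 28 changed sign, none of the last with a call. With TPM the P7 against E18.5 value turned for Cry2 (0.035), Arntl (0.11), Clock (0.078) and Dbp (0.22), and that of Per3 in rat (−0.0087). With limma-voom Clock at P3 was −0.029 and rat Per3 −0.022, and with a pseudocount of 0.1 rat Per2 was 0.0008. Without replicate 3 of both rat groups Per2 was 0.25 and Per1 −0.067. When each library was left out, signs turned for Per3 (−0.11 to 0.37), Arntl (−0.35 to 0.081) and Dbp (−0.18 to 0.15) at P7 against E18.5, Cry1 from P1 to P7 (−0.025 to 0.089), Nr1d1 from P3 to P7 (−0.22 to 0.027), and Nr1d1 (−0.14 to 0.11), Nr1d2 (−0.17 to 0.14) and Per1 (−0.064 to 0.19) from P1 to P3. In rat they turned for Cry1 (−0.20 to 0.046), Per2 (−0.16 to 0.29) and Per3 (−0.072 to 0.31). The cause of these changes was not tested. The replicate block left the calls at 2, 4 and 3 in mouse and 0 in rat. Mouse libraries share only a number (r from −0.096 to 0.171). With 2 libraries per age, 1 library could move a member across the adjusted p, as given with the values above except in 2 cases. These were Nr1d2 at P3 against E18.5 (−0.45 without replicate 1 of P3) and Clock from P1 to P7 (−0.49 with replicate 1 or replicate 2 of E18.5 left out). At equal list lengths 7 to 10 members kept a promoter peak per list, beside 35.5% to 67.1% of all tested genes, and Clock had none in 6 lists. The other peak alternatives gave 9 or 10, beside 39.6% to 96.1% of all genes.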
